A study of Mus musculus with 8 samples.

Results

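The genes described here are those of the NRF2 antioxidant response, 10 genes named for their place in this pathway, of which 9 had a probe set of their own among the 19938 genes measured. They are Nfe2l2 and Keap1, the sensor pair of the pathway, and its targets Nqo1, Hmox1, Gclc, Gclm, Slc7a11, Srxn1 and Txnrd1. The tenth, G6pdx, which supplies NADPH, had no probe set annotated to it alone and was not analysed here. Nqo1 was chosen because its level differs strongly between the 2 cell lines of the study, so every difference between the lines is given below as a description with no test. The other members were added for their function, but with earlier results of these data known. Each of the 9 had 1 probe set.

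The study used 2 established mouse lines, MBA-15, a stromal line of pre-osteoblastic character, and DA3, from a mammary adenocarcinoma. Each was kept in the same serum-containing medium, by itself or with DA3 seeded onto an MBA-15 layer, and the descriptions of all 8 samples name 24 h, while the growth protocol allows for a longer culture as well. Cells were parted with magnetic particles against EpCAM (CD326), an adhesion protein of epithelial cells, so that a DA3 fraction is the bound one and an MBA-15 fraction the unbound one. RNA went onto 8 Affymetrix MoGene arrays in 4 groups of 2, DA3 and MBA-15 from co-culture and either line labelled as alone. Each line stands for itself alone, and the labels do not say whether the 2 arrays of a group are separate cultures, and p-values then cover only how far these samples differ, perhaps for technical reasons alone. In such bulk RNA, fewer cells of a type and less RNA per cell cannot be told apart, and the number of arrays limits the precision.

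The arrays labelled MBA-15 alone went against their label in their epithelial markers, while their stromal markers stood near those of co-cultured MBA-15. Epcam stood at 5.58 and 5.19 in co-cultured MBA-15, at 8.45 and 9.25 in the pair labelled MBA-15 alone, at 9.30 and 9.38 in DA3 co-culture and at 9.57 and 9.46 in DA3 alone, all on the log2 scale. The mean over 23 measured epithelial markers was 4.76 and 4.64 in co-cultured MBA-15 and 8.39 and 8.27 in DA3 alone, and for the 2 labelled MBA-15 alone it was 7.13 and 7.65. Those 2 arrays are therefore called "labelled MBA-15 alone" throughout. The mean over 17 stromal markers was 7.45 and 7.54 on those 2 arrays and 7.97 and 7.67 in co-cultured MBA-15. In the other direction, the stromal mean was 6.13 and 5.61 in DA3 co-culture against 5.16 and 5.29 in DA3 alone. The osteoblast markers measured were Sp7, Alpl and Ibsp. On the co-cultured MBA-15 and labelled MBA-15 alone arrays they stood between 3.74 and 5.05, close to the array medians of 4.48 to 4.64. The mean over 7 leukocyte markers (3.98 to 4.42) and that over 6 endothelial markers (3.44 to 3.71) lay below every array median, although Cd68, a lysosomal gene among the former, stood at 4.62 to 6.80. The descriptions of the 4 arrays labelled alone carry the word mix, with no account of what was mixed.

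NRF2, the product of Nfe2l2, is a transcription factor that the adaptor KEAP1 hands to a ubiquitin ligase in unstressed cells. Electrophiles and oxidants modify cysteines of KEAP1, NRF2 then accumulates, pairs with small MAF proteins and binds antioxidant response elements beside genes for glutathione synthesis, thioredoxin reduction, NADPH supply and quinone removal. In carcinomas the pathway is known for cytoprotection and drug resistance.

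To show where such an element can be read in the promoters of these genes, the 250 bases upstream of each RefSeq start (GRCm38.p6) were searched on both strands for the core TGACNNNGC. A promoter was listed for 8 of the 10 genes, at 10 starts, and 4 starts of 4 genes held the core, against 10.2% of 32851 promoters in all. Each is printed 5′ to 3′ along the gene's strand, with the match in capitals. For Gclm, Txnrd1 and G6pdx the match is on the opposite strand and is printed as its reverse complement.
Nfe2l2, chr2:75704887-75704911, minus strand: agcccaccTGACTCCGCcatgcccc
Gclm, chr3:122245415-122245439, plus strand: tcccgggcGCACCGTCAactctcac
Txnrd1, chr10:82859106-82859130, plus strand: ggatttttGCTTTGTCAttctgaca
G6pdx, chrX:74428921-74428945, minus strand: gcgggtcaGCTCAGTCAaagcacac
The match ends 232 bases before the start in Nfe2l2, 126 in Gclm, 84 in Txnrd1 (at 1 of its 3 listed starts) and 49 in G6pdx. The promoter of Srxn1 held no match to this form of the core but 2 copies of TGAGTCA, the AP-1 element, ending 96 and 39 bases before the start. Neither copy is part of the searched core on either strand. The copy at 39 is followed by gc and so differs from the core only by a G in place of its C. The search for 1 form therefore does not show that Srxn1 lacks an element here. That element stood in 4.46% of all promoters.
Srxn1, chr2:152105414-152105436, plus strand: ggagggccTGAGTCAccacgctg
Srxn1, chr2:152105471-152105493, plus strand: attcacccTGAGTCAgcggccgg
Neither motif was found in the windows of Nqo1, Slc7a11 and Keap1, which says only that these letters are absent from 250 bases. A match is not a bound site, and binding was not measured.

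The arrays of the sensor pair overlapped between DA3 alone and both MBA-15 groups. Nfe2l2, the gene of NRF2 itself, had log2 levels of 8.73 and 8.49 in co-cultured MBA-15, 8.73 and 8.50 in the pair labelled MBA-15 alone, 7.57 and 7.97 in DA3 co-culture, while DA3 alone stood at 8.26 and 8.64. The DA3 co-culture arrays were below all 6 others. Keap1, the gene of its inhibitor, stood at 5.80 and 5.23, 5.77 and 5.74, 5.43 and 5.47, and 5.90 and 5.53 in the same order. Its lowest array was one of MBA-15 co-culture, and the line groups overlapped. DA3 alone minus MBA-15 co-culture came to -0.16 ± 0.21 log2 units for Nfe2l2 and 0.20 ± 0.22 for Keap1 (SE from limma, here and for every change below).

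**Figure D1:**
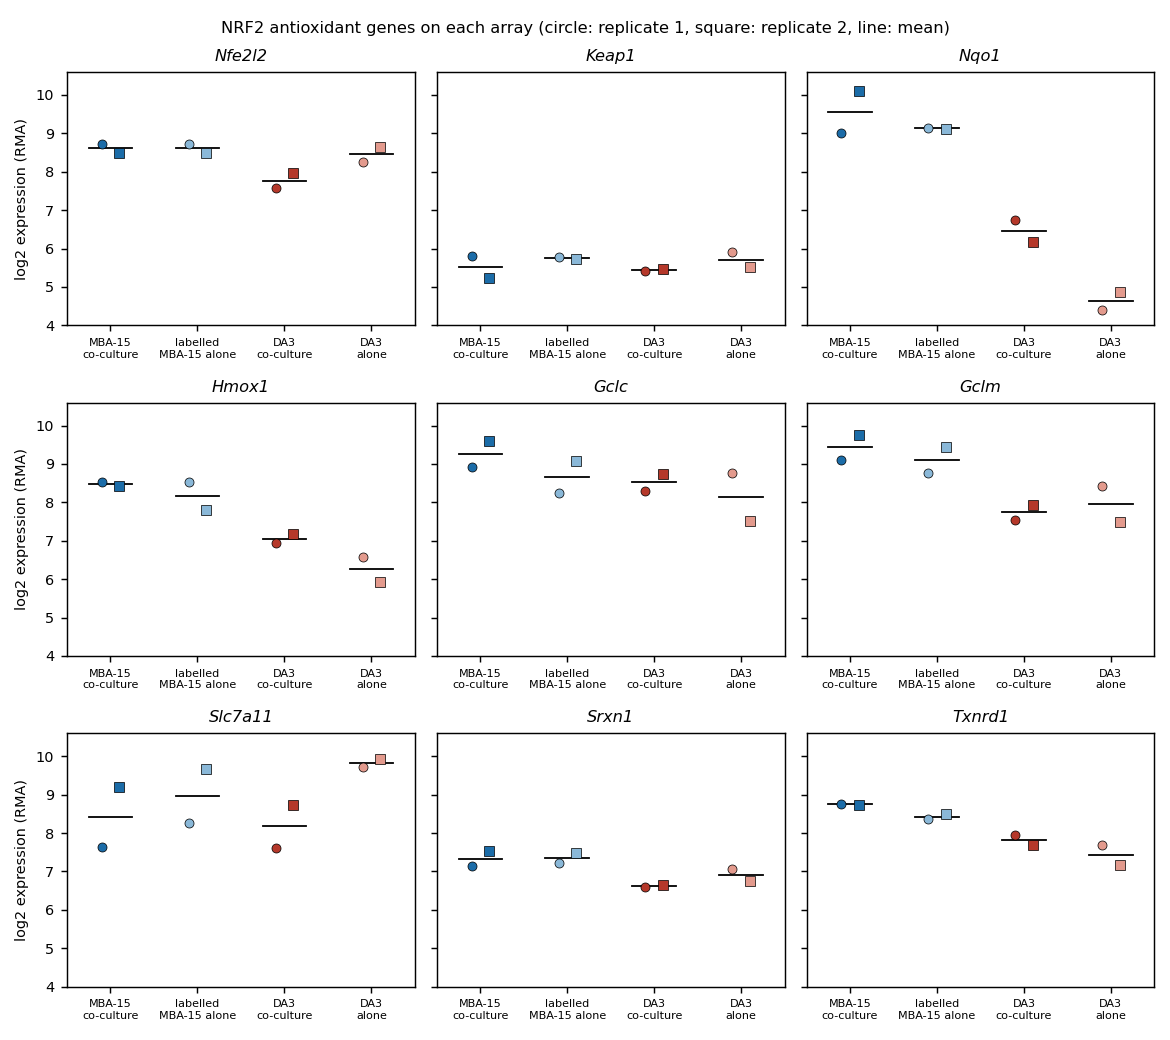
Log2 expression (vertical axis, RMA values) of the 9 measured NRF2 genes on each of the 8 arrays, by group on the horizontal axis; circles are replicate 1, squares replicate 2, and lines the means of 2 arrays. Levels of different genes are not to be compared with each other; within a panel, Nqo1 has a mean of 9.56 in co-cultured MBA-15 and of 4.64 in DA3 alone, while Slc7a11 is at its highest mean, 9.83, in DA3 alone.

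Nqo1 encodes NAD(P)H quinone dehydrogenase, which reduces quinones in a single step and is a standard readout of NRF2. Its log2 level was 9.01 and 10.11 in co-cultured MBA-15, 9.14 and 9.12 in the pair labelled MBA-15 alone, 6.73 and 6.18 in DA3 co-culture, and for DA3 alone it was 4.41 and 4.88. Both co-cultured MBA-15 arrays and both labelled MBA-15 alone lay above the 4 DA3 arrays with no overlap, and these 2 groups overlapped each other. The DA3 alone arrays lay near the array medians. The difference between DA3 alone and MBA-15 co-culture was -4.91 ± 0.38 log2 units, and it was -4.60 and -5.23 within assay numbers 4 and 3, a number from the sample descriptions whose meaning they do not give. It was -4.49 ± 0.38 against the arrays labelled MBA-15 alone, and -3.10 ± 0.38 between the co-cultured fractions. Nqo1 was not shown to be above background in DA3 alone, so no fold is given against that group and the differences from that group may be lower bounds.

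Hmox1, whose product heme oxygenase opens the heme ring and which the repressor BACH1 also controls, ran the same way. It stood at 8.53 and 8.42 in co-cultured MBA-15, 8.52 and 7.79 in the pair labelled MBA-15 alone, 6.93 and 7.18 in DA3 co-culture, and for DA3 alone it was 6.59 and 5.92. The order of the groups was that of Nqo1, with the 2 MBA-15 groups overlapping. The difference between DA3 alone and MBA-15 co-culture was -2.21 ± 0.30, with -1.94 and -2.49 within assay numbers 4 and 3.

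The glutathione genes did not share a single pattern. Gclc, the catalytic subunit of glutamate-cysteine ligase, was at 8.93 and 9.59 in co-cultured MBA-15, 8.26 and 9.07 in the pair labelled MBA-15 alone, 8.30 and 8.74 in DA3 co-culture, and 8.77 and 7.53 in DA3 alone. Gclm, its modifier subunit, was at 9.11 and 9.76, 8.77 and 9.45, 7.55 and 7.94, and 8.42 and 7.50 in the same order. For Gclm the co-cultured MBA-15 and labelled MBA-15 alone arrays lay above all DA3 arrays. For Gclc the 2 DA3 alone arrays stood far apart, and the means of the DA3 co-culture and labelled MBA-15 alone groups lay between them. DA3 alone minus MBA-15 co-culture was -1.11 ± 0.48 for Gclc, with -0.15 and -2.06 within assay numbers 4 and 3, and -1.47 ± 0.40 for Gclm, with -0.68 and -2.26. Slc7a11, the cystine and glutamate exchanger that feeds glutathione synthesis, was turned the other way. Its level was 7.63 and 9.19 in co-cultured MBA-15, 8.25 and 9.67 in the pair labelled MBA-15 alone, 7.60 and 8.74 in DA3 co-culture, and 9.71 and 9.94 in DA3 alone. DA3 alone was the highest group and overlapped none of the others, and the other 3 groups overlapped one another. The difference from MBA-15 co-culture was 1.42 ± 0.67, with 2.09 and 0.75 within assay numbers 4 and 3. Slc7a11 is also a known target of the stress factor ATF4.

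The genes of the thioredoxin arm were closer together. Txnrd1, cytosolic thioredoxin reductase, was at 8.75 and 8.74 in co-cultured MBA-15, 8.36 and 8.48 in the pair labelled MBA-15 alone, 7.96 and 7.69 in DA3 co-culture, and 7.68 and 7.17 in DA3 alone. Srxn1, the sulfiredoxin that restores over-oxidised peroxiredoxins, was at 7.14 and 7.53, 7.22 and 7.48, 6.60 and 6.64, and 7.07 and 6.74 in the same order. Both were lower on every DA3 array than on every co-cultured MBA-15 or labelled MBA-15 alone array. DA3 alone minus MBA-15 co-culture was -1.32 ± 0.20 for Txnrd1, with -1.07 and -1.57 within assay numbers 4 and 3. For Srxn1 it was -0.43 ± 0.19, with -0.07 and -0.79, and it was -0.23 without replicate 2 of co-cultured MBA-15 and -0.26 without DA3 alone replicate 2.

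Across the 9 members, 5 lay over 1 log2 unit below co-cultured MBA-15 in DA3 alone with no overlap of arrays (Nqo1, Hmox1, Gclc, Gclm and Txnrd1) and 1 lay that far higher (Slc7a11). The same held for 5.79% and 6.53% of all genes, and since Nqo1 was chosen on this difference nothing is read from the count. The median difference was -1.11 over the members and -0.0044 over all genes. When each array was centred on its median, which moved the median difference of all genes from -0.0044 to 0.11, 5 members in place of 6 passed this mark.

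Genes whose group means span at least 1 log2 unit numbered 3458, Nqo1 among them. Passing over predicted and clone-named loci, the 5 whose values ran most like those of Nqo1 over the 8 arrays were Fgf7 (Pearson r = 0.986), Tmem45a (0.986), Ccl7 (0.985), Layn (0.984) and Igfbp7 (0.984). Fgf7 encodes a stromal growth factor for epithelia and Ccl7 a chemokine. Fgf7 stood at 10.87 and 10.71 in co-cultured MBA-15 and at 5.49 and 6.24 in DA3 alone. Of the other members, r with Nqo1 was 0.93 for Txnrd1 and for Hmox1, 0.81 for Gclm, 0.72 for Srxn1, 0.59 for Gclc, 0.39 for Nfe2l2, -0.16 for Keap1 and -0.35 for Slc7a11. The 8 arrays fall into 2 lines by label and are not independent points, so these values are a description.

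The first question about co-culture is what growth with stromal cells changed in the carcinoma line. Nqo1 stood 1.82 ± 0.38 log2 units higher in DA3 co-culture than in DA3 alone, from 4.64 ± 0.33 to 6.46 ± 0.39 (SD, n = 2 arrays). Both co-culture arrays lay above both controls, but the difference did not pass after adjustment over all genes (limma, Benjamini-Hochberg adjusted p = 0.172). Hmox1 was 0.80 ± 0.30 higher (limma adjusted p = 0.308) and Txnrd1 0.40 ± 0.20 higher (limma adjusted p = 0.395), again with no overlap. Slc7a11 had a change of -1.66 ± 0.67 (limma adjusted p = 0.328), and Nfe2l2 had a change of -0.68 ± 0.21 (limma adjusted p = 0.255), with every co-culture array below every control.

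The remaining members had smaller differences. Srxn1 had a change of -0.29 ± 0.19 and Keap1 of -0.26 ± 0.22, with arrays that did not overlap, and Gclc of 0.37 ± 0.48 and Gclm of -0.22 ± 0.40, with arrays that did. Thus 0 of 9 members passed an adjusted p of 0.05 in limma, where 8 of all genes did (0.0401%), and 4 members (Nqo1 and Hmox1 higher, Slc7a11 and Nfe2l2 lower) had an unadjusted p under 0.05, where 14.9% of all genes did. Arrays did not overlap for 3 members higher and 4 lower, where this held for 31.4% and 22.4% of all genes, 53.8% in either direction. The median change was -0.22 over the members and 0.04 over all genes. The 95% interval for Nqo1 ran from 0.91 to 2.72 before any adjustment, and that for Slc7a11 from -3.27 to -0.05.

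Within assay number 3, which alone holds both DA3 groups, the change was 1.86 for Nqo1, 1.01 for Hmox1, 0.79 for Txnrd1, -2.34 for Slc7a11 and -1.06 for Nfe2l2. Assay number 5 holds a single DA3 co-culture array. Slc7a11 changed by -2.76 ± 0.45 with the assay number as a block (limma adjusted p = 0.138), a fit in which the array of assay number 5 carries no weight for this change. Without DA3 co-culture replicate 1 its change was -1.08, and without DA3 alone replicate 2 that of Hmox1 was 0.47. Txnrd1 had a change of 0.65 without DA3 alone replicate 1, 0.14 without DA3 alone replicate 2 and 0.26 without DA3 co-culture replicate 1. Leaving out DA3 alone replicate 1 or 2 gave -0.12 or -0.45 for Srxn1 and -0.078 or -0.45 for Keap1.

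Stromal markers moved with Nqo1 on the DA3 co-culture arrays. Col1a1, a fibrillar collagen gene, stood at 9.61 and 7.78 there against 6.65 and 6.91 in DA3 alone, and Pdgfrb, a receptor of mesenchymal cells, at 5.55 and 4.66 against 4.09 and 4.26. Of the 17 stromal markers measured, 11 were higher on both co-culture arrays than on both controls, beside 31.4% of all genes. None was lower on both, beside 22.4%, though 3 had a change below 0. All 6 endothelial markers, whose means lay below every array median, were likewise higher on both. The median stromal change was 0.57. Of the stromal markers 0 passed an adjusted p of 0.05 in limma and 10 had an unadjusted p under 0.05, beside 14.9% of all genes. On a linear scale, as a percentage of the distance from the mean of DA3 alone to that of MBA-15 co-culture, Nqo1 stood at 10.4% and 6.04% on the 2 DA3 co-culture arrays and Hmox1 at 15.8% and 23.9%. The 11 stromal markers over 2 log2 units apart between those groups had a median of 8.58% (4.95 to 35.6%) on replicate 1 and 4.18% (-0.51 to 6.96%) on replicate 2. Nqo1 lies inside the range of the markers on both arrays, and Hmox1 above it on replicate 2. The part of MBA-15 RNA in these differences was not tested.

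**Figure D2:**
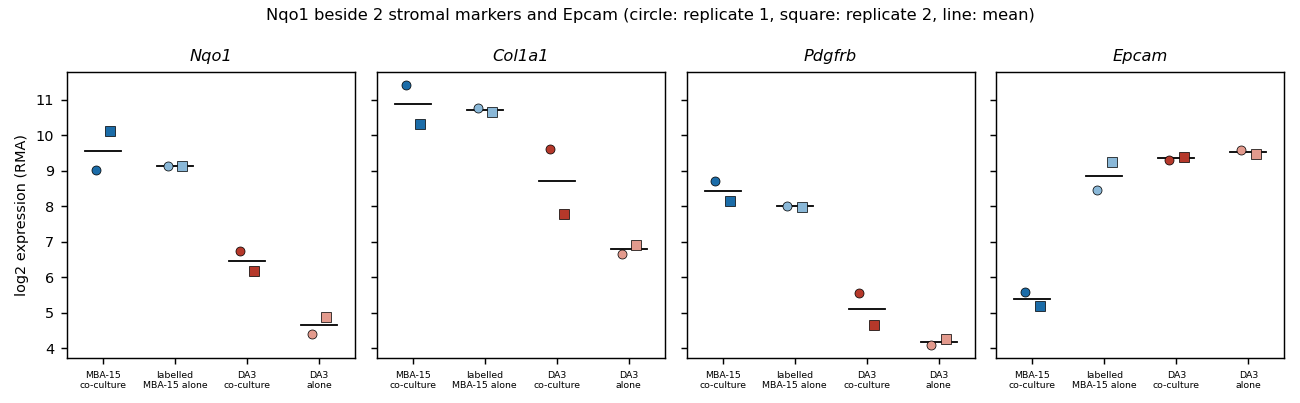
Log2 expression (vertical axis, RMA values) of Nqo1, the stromal markers Col1a1 and Pdgfrb, and the epithelial marker Epcam on the 8 arrays by group; circles are replicate 1, squares replicate 2, lines the means. On the DA3 co-culture arrays Nqo1, Col1a1 and Pdgfrb are each above DA3 alone and higher on replicate 1 than on replicate 2, and in the pair labelled MBA-15 alone Epcam stands at 8.45 and 9.25.

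The second question is what growth with carcinoma cells changed in the stromal line. Nqo1 was 0.43 ± 0.38 log2 units higher in co-cultured MBA-15, from 9.13 ± 0.01 to 9.56 ± 0.78 (SD, n = 2 arrays), and the arrays overlapped (limma adjusted p = 0.788). The change was -0.13 and 0.98 within assay numbers 4 and 3, and -0.12 without MBA-15 co-culture replicate 2. Txnrd1, at 0.32 ± 0.20, was the single member whose arrays did not overlap, with 0.39 and 0.25 within assay numbers 4 and 3 (limma adjusted p = 0.695). The values of Gclc (0.60 ± 0.48), Gclm (0.33 ± 0.40) and Hmox1 (0.31 ± 0.30) were above 0, that of Slc7a11 was -0.55 ± 0.67 and that of Keap1 -0.24 ± 0.22. Nfe2l2 (-0.01 ± 0.21) and Srxn1 (-0.02 ± 0.19) were near 0, and both turned above 0 with quantile normalization added.

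In all, 0 of 9 members passed an adjusted p of 0.05 in limma, where 0.848% of all genes did, and 0 had an unadjusted p under 0.05, where 9.8% did. Arrays did not overlap for 1 member, higher, against 22.3% of all genes higher and 38.4% in either direction. Epcam changed by -3.46 ± 0.27 (limma adjusted p = 0.00713). All 23 epithelial markers were lower on both co-culture arrays than on both labelled MBA-15 alone, as were 3207 of all 19938 genes. Of these markers 17 were past the threshold in limma. On the linear scale, the 20 epithelial markers over 2 log2 units apart between DA3 alone and co-cultured MBA-15 stood at a median of 36.1% and 58.8% of the way to DA3 alone in the pair labelled MBA-15 alone. On the same 2 arrays Nqo1 stood at 68.7% and 67.9% of the way from DA3 alone to MBA-15 co-culture, Hmox1 at 105% and 51.8%, and the 11 stromal markers at a median of 61.3% and 69.5%. The part of DA3 RNA in the MBA-15 comparison was not tested.

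**Figure D3:**
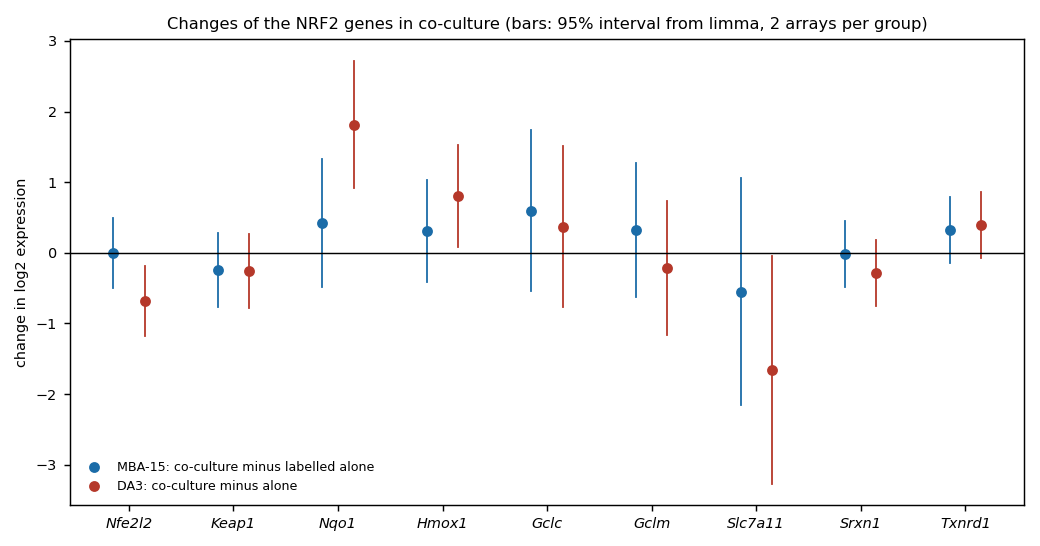
Change in log2 expression in co-culture (vertical axis) of the 9 measured NRF2 genes for MBA-15 (blue, against the arrays labelled MBA-15 alone) and DA3 (red, against DA3 alone); points are differences of means of 2 arrays and bars the 95% intervals from limma, not adjusted for the number of genes. The intervals of Nqo1 (0.91 to 2.72) and Hmox1 lie above 0 in DA3, those of Slc7a11 and Nfe2l2 below 0, and all 9 MBA-15 intervals include 0.

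Whether the changes differed between the lines was tested as an interaction. Its MBA-15 side uses the arrays labelled MBA-15 alone, which went against their label in their epithelial markers. All 23 epithelial markers had a difference above 0 (median 2.62), and 3 of them were among the genes that passed. The part of DA3 RNA in this contrast was not tested. The change of Nqo1 was 1.39 ± 0.53 log2 units larger in DA3 than in MBA-15 (limma adjusted p = 0.743), and that of Nfe2l2 was -0.67 ± 0.29 (limma adjusted p = 0.804). The difference for Slc7a11 was -1.11 ± 0.95 (limma adjusted p = 0.999). Leaving out replicate 1 or 2 of co-cultured MBA-15 gave 0.84 or 1.94 for Nqo1 and -1.89 or -0.32 for Slc7a11, which over all single arrays left out are the ends of both ranges. None of the 9 members passed in limma, 1 (Nqo1) had an unadjusted p under 0.05, and 12 of all genes (0.0602%) passed, with an unadjusted p under 0.05 for 6.32%.

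The other genes of the pathway were taken from 7 lists, and 54 of their 58 genes were measured. These lists too were written with earlier results of these data known. Between the lines, 19 were over 1 log2 unit below co-cultured MBA-15 in DA3 alone with no overlap and 1, Abcc3, was that far higher, beside 5.79% and 6.53% of all genes. The lower genes were 7 of 10 for quinone and carbonyl removal, 6 of 15 for glutathione use, 3 of 5 for NADPH supply, 1 of 6 for heme and iron, 1 of 3 for thioredoxin and peroxiredoxin, 1 of 4 exporters and 0 of 11 regulators. This is the contrast that chose Nqo1 and is given as a description. Ptgr1, prostaglandin reductase, which also reduces reactive aldehydes and ketones, was at 7.91 and 7.93 in co-cultured MBA-15 and at 4.54 and 4.77 in DA3 alone. Ephx1, microsomal epoxide hydrolase, was at 9.90 and 10.13 against 8.39 and 8.58.

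In DA3 co-culture 0 of the 54 genes passed, where 0.0401% of all genes did. An unadjusted p under 0.05 in limma was found for 1 higher and 8 lower, where 14.9% of all genes had one. The median change was -0.04. Mgst1, a membrane-bound glutathione transferase, stood at 6.41 and 7.13 in DA3 co-culture against 8.71 and 9.38 in DA3 alone, a change of -2.28 ± 0.49 (limma adjusted p = 0.179). Its MBA-15 co-culture arrays were at 8.19 and 9.51, above both DA3 co-culture arrays. Ephx1 stood at 7.17 and 7.48, a change of -1.16 ± 0.16 (limma adjusted p = 0.0906). That was below DA3 alone and further still below the co-cultured MBA-15 and labelled MBA-15 alone arrays. Ptgr1 was at 5.43 and 5.82, a change of 0.97 ± 0.25 (limma adjusted p = 0.209). Mgst2, a relative of Mgst1, had a change of -0.90 with overlapping arrays, and of -1.51 to -0.28 with single arrays left out. Within assay number 3 the changes were -2.97 for Mgst1, -1.96 for Mgst2, -1.42 for Ephx1 and 0.66 for Ptgr1.

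Among co-cultured MBA-15 against its controls, 1 of the 54 genes passed, the drug and conjugate exporter gene Abcc3, which fell by 2.10 ± 0.28 log2 units (limma adjusted p = 0.0276), with -1.73 and -2.47 within assay numbers 4 and 3. It stood at 3.86 and 3.94 in co-cultured MBA-15, below the array medians, at 5.59 and 6.40 in the pair labelled MBA-15 alone, with DA3 alone at 7.07 and 7.13. Its order over these groups was that of Epcam, and the part of DA3 RNA in the difference was not tested. Its adjusted p was between 0.0147 and 0.165 in limma when single arrays were left out, and it missed the threshold without either MBA-15 co-culture array, without replicate 2 labelled MBA-15 alone and without either DA3 alone array. Of all genes 0.848% passed, and an unadjusted p under 0.05 was found for 1 of the 54 higher and 2 lower, where 9.8% of all genes had one. The next largest changes did not pass: 0.73 ± 0.41 for Glrx, the glutaredoxin, 0.73 ± 0.44 for Akr1b8, an aldo-keto reductase, and -0.70 ± 0.23 for Dpp3, a peptidase that binds KEAP1 (limma adjusted p = 0.666, 0.695 and 0.36). Within assay numbers 4 and 3 they were 0.24 and 1.21 for Glrx, -0.11 and 1.56 for Akr1b8, and -0.46 and -0.95 for Dpp3. Single arrays left out gave 0.25 (without replicate 2 labelled MBA-15 alone) to 1.20 (without replicate 1) for Glrx, and 0.27 (without replicate 2 of co-cultured MBA-15) to 1.19 (without replicate 1) for Akr1b8. The median change over the 54 genes was 0.05, against 0.04 over all genes.

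**Figure D4:**
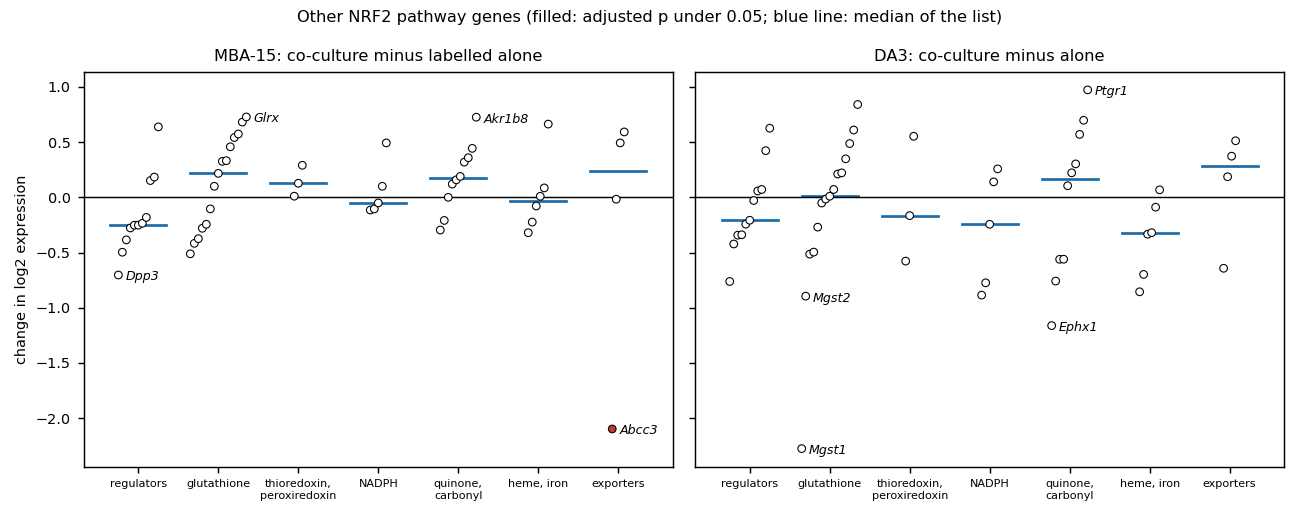
Change in log2 expression in co-culture (vertical axis) of 54 other NRF2 pathway genes in 7 lists (horizontal axis), for MBA-15 on the left and DA3 on the right; each point is 1 gene, filled where the limma adjusted p is under 0.05, and blue lines are list medians. Abcc3, at -2.10 on the left, is the filled point; Mgst1, at -2.28 on the right, did not pass.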

How the data were processed

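The authors deposited 1 log2 level for each probe set, from RMA and Partek 6.5 per the submitters' processing notes; parameters and build are not given in the sources used here, and the log2 scale was read from the values' range. Of 35556 probe sets, 21789 were annotated with 1 gene symbol, 1621 with more, and 12146 were missing from the annotation table. The probe set with the highest mean was kept for each of 19938 genes, and dim genes stayed in. No 2 arrays shared more than 2 identical values.

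All 8 arrays, grouped by their titles, were fitted with limma 3.58.1 (R 4.3.3) as 4 group means. The residual degrees of freedom were 4 and the prior 2.6. P-values are two-sided, Benjamini-Hochberg adjusted over all genes, with a threshold of 0.05. Intervals cover 95%. The fit was tested on simulated data with independent noise and no assay effect, with 50 genes planted at each size. At 1 log2 unit it called 13 in MBA-15, 11 in DA3 and 2 for the difference, so most such changes were missed. At 2 log2 units it called 38, 35 and 37. Each comparison had 2 false calls.

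Members and lists were chosen with earlier results of these data known. Named pathway genes are those that passed and the 4 with the largest absolute change in each comparison. Named as well are the 5 genes most correlated with Nqo1, with predicted and clone-named loci passed over. Other choices tried were the probe set rule, a filter on dim genes, centring, quantile normalization, the variance model, the arrays fitted, assay or replicate blocks and leaving out arrays.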

Additional observations from a re-analysis of the deposited data

Results flagged for a closer look

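For Ephx1, the epoxide hydrolase gene, the arrays lay in opposite order in the 2 lines, with no change shown in either: both MBA-15 co-culture arrays (9.90 and 10.13) lay above both arrays labelled MBA-15 alone (9.87 and 9.85), and both DA3 co-culture arrays (7.17 and 7.48) lay below both DA3 alone arrays (8.39 and 8.58). In MBA-15 the nearest arrays were 9.90 and 9.87. Arrays did not overlap for 22.3% of all genes, higher, in MBA-15 and for 22.4%, lower, in DA3. The share of all genes with both was not counted, so nothing is read from the order. The difference between the 2 changes was -1.32 ± 0.23 log2 units and did not pass (limma adjusted p = 0.199). The MBA-15 change itself was 0.16 ± 0.16 (limma adjusted p = 0.816) and the DA3 change -1.16 ± 0.16 (limma adjusted p = 0.0906). The part of DA3 RNA on the arrays labelled MBA-15 alone was not tested.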

How the results depend on the processing

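The count of members that passed was 0 in both co-culture comparisons and in their difference under every alternative run, the replicate block (0, 0 and 0) and leaving out single arrays (0 to 0) among them. Of 714 gene values under another setting, 674 kept their direction and their side of the threshold or stayed within the spread of arrays, 25 changed sign, 8 moved beyond that spread, 6 lost a call and 1 gained it. Many of these values could not change sign, since several settings leave the estimate as it is. The MBA-15 change of Nqo1 stayed at 0.43 with the probe set mean, the dim filter, the other variance model and the replicate block. No robustness is read from the count. Fitted on the 2 MBA-15 groups alone, 0 pathway genes were called in place of 1 (Abcc3, -2.10, limma adjusted p = 0.136). Over all genes, 28 were called in that fit in place of 169. With trend and robust eBayes 1 pathway gene was called in DA3 (Mgst1, -2.28, limma adjusted p = 0.0417), and Nqo1 had a limma adjusted p of 0.0614. Over all genes, 134 were called in that fit in place of 8. With quantile normalization the MBA-15 changes of Srxn1 (0.019) and Nfe2l2 (0.035) and the difference for Keap1 (0.063) turned, as did that of Keap1 with the assay block (0.12) and of Txnrd1 with centring (-0.011). The causes were not tested. Single arrays left out turned the MBA-15 changes of Nqo1 (-0.12 to 0.98), Hmox1 (-0.054 to 0.68), Gclm (-0.018 to 0.67), Slc7a11 (-1.33 to 0.23), Srxn1 (-0.21 to 0.18), Nfe2l2 (-0.12 to 0.11) and Keap1 (-0.53 to 0.048), the DA3 changes of Gclc (-0.25 to 0.99) and Gclm (-0.68 to 0.24), and the differences of Gclc (-0.85 to 0.40), Keap1 (-0.31 to 0.27) and Txnrd1 (-0.18 to 0.33). Leaving out 1 MBA-15 array also leaves the array of the same assay number in the other MBA-15 group unmatched. Of these MBA-15 changes, those of Hmox1, Gclm, Slc7a11 and Nfe2l2 kept their sign within assay numbers 4 and 3. Those of Nqo1, Srxn1 and Keap1 did not. Members over 1 log2 unit apart between the lines numbered 5 to 6. Deviations of arrays with the same replicate number correlated at r = 0.01 between the MBA-15 groups and 0.03 between the DA3 groups. They correlated at 0.21 and 0.13 between DA3 alone and the co-cultured or labelled alone MBA-15 groups. Such arrays share an assay number in each of these pairs of groups except the DA3 groups. Replicates 1 and 2 carry assay numbers 4 and 3 in DA3 alone but 3 and 5 in DA3 co-culture, so the r of 0.03 does not test pairing by assay. Since the groups of each co-culture comparison did not deviate together by replicate number, these numbers were not taken as pairs there. The replicate block moved the calls over all genes from 169 to 142 in MBA-15, from 8 to 3 in DA3 and from 12 to 0 for the difference. With the arrays labelled MBA-15 alone left out, a choice made after seeing the data, 0 members and 0 pathway genes passed in DA3. The number of arrays and the signal of dim genes, Nqo1 in DA3 alone among them, limit what could be detected.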

Other observations

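The arrays of a group differed more for some members than for most genes. In DA3 alone, replicate 2 was 1.25 log2 units below replicate 1 for Gclc and 0.92 below for Gclm, the subunits of 1 enzyme, where the median absolute gap over all genes was 0.13 and 0.311% of genes had a gap over 1. In the MBA-15 groups replicate 2 was above replicate 1 for both, by 0.66 and 0.81 for Gclc and by 0.65 and 0.69 for Gclm. Gaps over 1 were more common outside DA3 alone, at 4.46% of genes in MBA-15 co-culture, 2.11% in labelled MBA-15 alone and 6.03% in DA3 co-culture. For Slc7a11 replicate 2 was above replicate 1 by 1.56 in MBA-15 co-culture, 1.42 on the arrays labelled MBA-15 alone, 0.23 in DA3 alone and 1.15 in DA3 co-culture. Replicates 1 and 2 carry assay numbers 4 and 3 in the first 3 of these groups and 3 and 5 in DA3 co-culture. The part of assay in these gaps was not tested.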
